A study of Homo sapiens with 36 samples.

Results

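NFYB knockdown after 8 h of 4-hydroxytamoxifen (OHT) was examined in the human osteosarcoma line U2OS ER-HA-E2F1 on 12 of the 36 Affymetrix expression arrays of the series. The members of the comparison were chosen by the sample labels alone: all 6 arrays of cells given siRNA against NFYB (3 with an Ambion siRNA and 3 with a Dharmacon siRNA) and all 6 arrays of cells given a negative control siRNA (3 with a Dharmacon siRNA and 3 with a Sigma-Aldrich siRNA), each at 8 h. Every cell carried the same fusion of E2F1 with an HA tag and the hormone-binding part of the estrogen receptor, which OHT activates. In all 12 cultures serum was withdrawn 18 h after transfection and kept away for 24 h, and 80 nM OHT in serum-free medium followed for 8 h. The comparison asks which transcripts differ when NFYB is depleted while E2F1 is active. The line is a single puromycin-selected, retrovirally infected population. All arrays at 8 h had received OHT, so what E2F1 does at 8 h cannot be told apart from what OHT, or more time without serum, does. The labels call the 3 arrays of each siRNA biological replicates.

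NF-Y is a trimer of NFYA, NFYB and NFYC that binds the CCAAT box, a short promoter element common in genes of mitosis, histones, endoplasmic reticulum (ER) chaperones and lipid synthesis. NFYB and NFYC pair through a histone fold, and NFYA then joins the pair and contacts the DNA. All the subunits are needed for binding to DNA.

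Because NF-Y reads CCAAT, the 250 bases before the transcription start are shown for 9 genes on which the results below turn: the cyclins CCNB1 and CCNB2, which were lower, CDC25C and NUDT2, which were higher, the ER chaperones HSPA5 and PDIA4 and the enzyme gene ADI1, which were lower, and the neighbours NFYA and OARD1. Sequences are from RefSeq on GRCh38.p14, on the strand of the gene, and capitals mark CCAAT or its reverse complement ATTGG. In HSPA5 capitals also mark CCACG, which follows a CCAAT after 9 bases and so completes the ER stress element (CCAAT, any 9 bases, CCACG). No promoter for NFYB is shown.
CCNB2, chr15:59104896-59105145, plus strand: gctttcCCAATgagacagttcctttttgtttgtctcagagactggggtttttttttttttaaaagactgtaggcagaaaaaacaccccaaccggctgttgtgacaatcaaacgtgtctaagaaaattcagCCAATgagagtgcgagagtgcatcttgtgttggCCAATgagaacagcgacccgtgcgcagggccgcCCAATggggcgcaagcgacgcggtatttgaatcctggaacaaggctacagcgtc
CCNB1, chr5:69166900-69167149, plus strand: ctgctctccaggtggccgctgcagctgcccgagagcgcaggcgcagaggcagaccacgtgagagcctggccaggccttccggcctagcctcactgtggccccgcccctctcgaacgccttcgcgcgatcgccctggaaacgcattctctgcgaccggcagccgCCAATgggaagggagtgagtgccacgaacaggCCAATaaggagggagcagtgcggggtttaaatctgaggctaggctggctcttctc
CDC25C, chr5:138338356-138338605, minus strand: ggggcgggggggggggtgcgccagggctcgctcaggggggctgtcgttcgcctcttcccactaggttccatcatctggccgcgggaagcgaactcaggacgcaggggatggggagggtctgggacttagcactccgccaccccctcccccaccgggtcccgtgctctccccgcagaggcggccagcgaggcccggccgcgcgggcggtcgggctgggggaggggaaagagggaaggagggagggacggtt
HSPA5, chr9:125241344-125241593, minus strand: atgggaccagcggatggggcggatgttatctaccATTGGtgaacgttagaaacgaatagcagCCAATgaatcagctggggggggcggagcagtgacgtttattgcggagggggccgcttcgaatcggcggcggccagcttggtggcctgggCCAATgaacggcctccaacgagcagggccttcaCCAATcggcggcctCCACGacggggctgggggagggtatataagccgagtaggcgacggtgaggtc
PDIA4, chr7:149028491-149028740, minus strand: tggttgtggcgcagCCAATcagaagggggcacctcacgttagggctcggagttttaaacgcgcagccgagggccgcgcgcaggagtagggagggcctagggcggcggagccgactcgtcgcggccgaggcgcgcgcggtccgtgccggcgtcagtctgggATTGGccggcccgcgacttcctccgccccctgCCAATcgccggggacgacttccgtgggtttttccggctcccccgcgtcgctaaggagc
NUDT2, chr9:34329319-34329568, plus strand: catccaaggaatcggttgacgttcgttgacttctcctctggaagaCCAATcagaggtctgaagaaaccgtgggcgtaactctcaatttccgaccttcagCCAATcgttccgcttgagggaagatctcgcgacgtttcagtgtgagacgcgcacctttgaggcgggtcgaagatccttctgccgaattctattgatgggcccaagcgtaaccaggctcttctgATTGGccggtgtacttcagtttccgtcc
ADI1, chr2:3519532-3519781, minus strand: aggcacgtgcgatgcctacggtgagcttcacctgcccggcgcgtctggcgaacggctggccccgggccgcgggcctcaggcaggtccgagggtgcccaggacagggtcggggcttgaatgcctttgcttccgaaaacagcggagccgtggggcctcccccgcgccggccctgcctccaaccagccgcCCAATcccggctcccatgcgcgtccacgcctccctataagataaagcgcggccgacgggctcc
NFYA, chr6:41072724-41072973, plus strand: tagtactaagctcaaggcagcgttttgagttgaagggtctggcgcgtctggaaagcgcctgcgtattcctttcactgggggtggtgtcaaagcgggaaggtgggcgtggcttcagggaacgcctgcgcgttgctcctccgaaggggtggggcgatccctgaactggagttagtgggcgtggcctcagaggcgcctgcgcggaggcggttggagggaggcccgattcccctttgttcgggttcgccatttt
OARD1, chr6:41072357-41072606, minus strand: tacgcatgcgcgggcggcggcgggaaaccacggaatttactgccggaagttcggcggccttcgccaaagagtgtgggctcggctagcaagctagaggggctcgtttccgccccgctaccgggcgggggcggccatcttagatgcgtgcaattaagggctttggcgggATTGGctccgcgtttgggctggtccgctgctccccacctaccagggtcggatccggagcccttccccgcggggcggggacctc
CCNB2 held 4 CCAAT boxes in this window, the last of them 54 bases before the start, and CCNB1 held 2, at 87 and 55 bases. HSPA5 held 4, PDIA4 and NUDT2 3 each, and ADI1 and OARD1 1 each. The letters were absent from the windows of CDC25C and NFYA, which says nothing of sites elsewhere in those genes. NFYA held a match 46 bases after its start. From earlier work, the study lists both CDC25C and CCNB2 among genes under the control of NF-Y.

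Signals are MAS5 values on a linear scale, in arbitrary units that can be compared between arrays but not between probe sets. Median signal of the 12 arrays lay between 100.5 and 115.4. Over all 22215 probe sets tested with limma, 485 (2.18%) were higher and 547 (2.46%) lower with NFYB siRNA at a Benjamini-Hochberg adjusted p under 0.05, and 283 and 270 of these had no overlap between the groups of 6. Over all probe sets, called or not, the arms lay apart in 1.63% (NFYB siRNA above) and 1.82% (below), and over genes in 2.06% and 1.98%. With each gene represented by its brightest probe set, 324 of 11963 genes (2.71%) were higher and 308 (2.57%) lower, and the median change of all genes was −0.01 on the log2 scale. The siRNAs of an arm also differed from each other. In a fit with each siRNA as a group of its own, 1938 probe sets (8.72%) differed between the siRNAs against NFYB and 2783 (12.5%) between the control siRNAs, while 1356 were higher and 1597 lower between the arms. In that fit Ambion NFYB siRNA against Dharmacon control and Dharmacon NFYB siRNA against Sigma-Aldrich control share no arrays. Of the probe sets called in both, 458 had the same sign and 368 opposite signs. With the controls exchanged these counts were 364 and 207. Of the 485 and 547 calls of the pooled arms, 480 and 537 had the same sign in all 4 pairings of a NFYB siRNA with a control siRNA. Of all the pooled calls 209 differed between the NFYB siRNAs. A further fit made siRNA a random block, with the arrays of each siRNA at each time as a block. In it 157 probe sets stayed higher and 144 lower, all of them among the 485 and 547. By brightest probe set 111 of the 324 genes called higher and 94 of the 308 called lower held. The counts that held in each list below stand beside these. For a gene that lost its call in that fit the adjusted p is given below as the blocked adjusted p. RNA integrity moved with the arms in part: the 3′ to 5′ signal ratio of the ACTB control probe sets was 2.55 to 3.32 (median 2.90) with control siRNA and 3.12 to 4.06 (median 3.70) with NFYB siRNA, and that of GAPDH 1.05 to 1.14 and 0.99 to 1.21. The part of this shift in the results was not tested.

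Markers of the line were as its label says in part. SPARC, which bone-forming cells secrete, had signals of 5880 to 8550 and COL1A1 of 943 to 2213 over the 12 arrays, while RUNX2, COL1A2 and IBSP did not exceed 40.9 and ALPL ranged from 42.3 to 157. Leukocyte and endothelial markers were near the floor, with summed signals of 18.7 to 77.2 over 4 genes and 45.6 to 91.2 over 4 genes. Of the epithelial markers, KRT18 (4753 to 10248), KRT8 (506 to 1538) and EPCAM (278 to 476) had signal, and CDH1 and KRT19 did not exceed 16.2. None of these 19 genes passed the test in either direction. Bulk RNA cannot tell a change in the RNA of each cell from a change in the share of cells in a phase of the cell cycle.

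NFYB itself fell by 2.44 on the log2 scale (SE 0.19, adjusted p = 2.4e-11). Its brightest probe set, 218127_at, ranged from 579 to 717 with control siRNA (median 654) and from 74.1 to 187 with NFYB siRNA (median 117), so that the 6 and 6 arrays lay far apart. On its other probe sets NFYB fell by 2.56 and fell by 3.58. The Dharmacon siRNA left less NFYB than the Ambion siRNA, by 0.80 (adjusted p = 0.0073). In control siRNA cells NFYB had risen by 1.79 between 0 and 8 h of OHT, so the knockdown was measured against an induced level.

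The partners moved the other way. NFYA, the DNA-contacting subunit, ranged from 377 to 528 (median 484) with control siRNA and from 802 to 1026 (median 904) with NFYB siRNA, an increase of 0.94 (SE 0.09, adjusted p = 3.8e-09) with no overlap. NFYC, the histone-fold partner of NFYB, ranged from 480 to 573 (median 505) and from 643 to 1034 (median 885) on its brightest probe set, an increase of 0.72 (SE 0.09, adjusted p = 1.3e-06), again with no overlap. Of the 4 probe sets for each partner, 3 for NFYA and 4 for NFYC passed the test, all upward. Neither increase was particular to 8 h, since NFYA was already up by 0.99 and NFYC by 0.59 before OHT was given. The gene next to NFYA showed the same: OARD1, which removes ADP-ribose from proteins, ranged from 376 to 557 (median 465) and from 769 to 1023 (median 883), an increase of 0.95 (SE 0.12, adjusted p = 1.9e-06). On chromosome 6 OARD1 starts at 41072356 on the minus strand and NFYA at 41072974 on the plus strand, 618 bases apart and pointing away from each other.

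**Figure D1:**
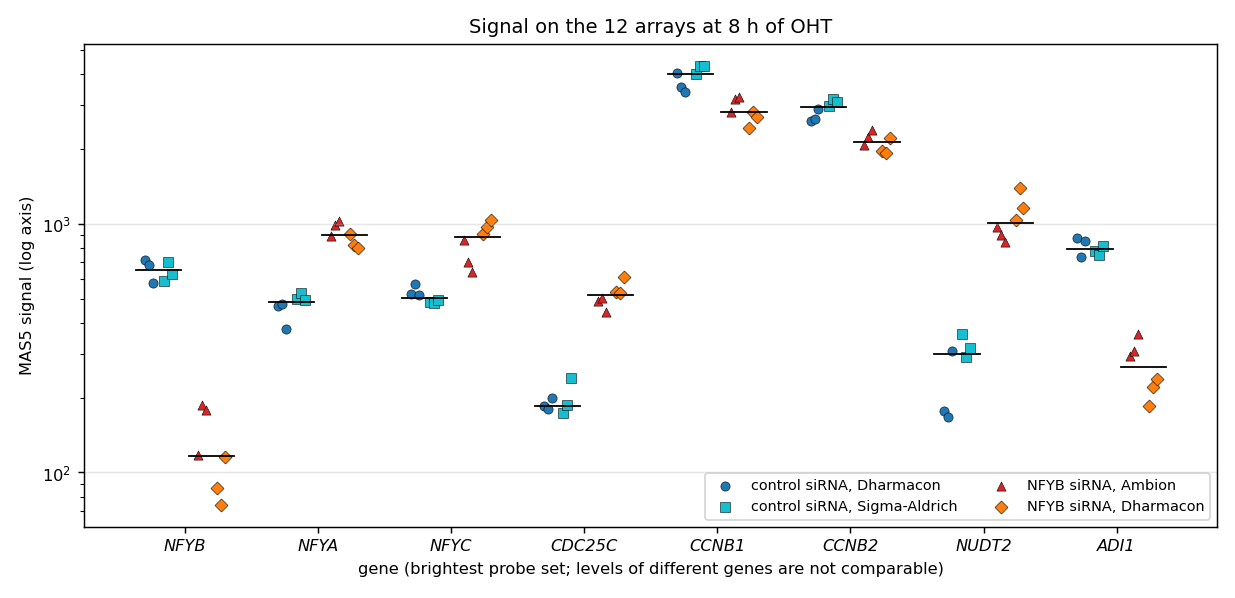
MAS5 signal (log axis) of 8 genes on each of the 12 arrays at 8 h, with symbols for the 4 siRNAs and a bar at the median of each group of 6. NFYB falls to a median of 117. NFYA, NFYC, CDC25C and NUDT2 lie above their controls, and CCNB1, CCNB2 and ADI1 below. The arms do not overlap in any of the 8 genes, which the choice of NUDT2 and ADI1 required.

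The clearest response tied to the hours of OHT was that of CDC25C, the phosphatase that activates CDK1 at the entry into mitosis. At 8 h its signal ranged from 174 to 240 (median 186) with control siRNA and from 444 to 613 (median 516) with NFYB siRNA. The difference was 1.42 (SE 0.10, adjusted p = 2.3e-12), and every NFYB siRNA array lay above every control array. It was between 1.27 and 1.56 in each of the 4 pairings of a NFYB siRNA with a control siRNA. Before OHT the arms did not differ detectably, with medians of 442.5 and 458 and a difference of 0.12 (adjusted p = 0.64). In control siRNA cells the median then fell to 253 at 4 h and 186 at 8 h, whereas in NFYB siRNA cells it was 463 and 516. The difference at 8 h exceeded that at 0 h by 1.3 (adjusted p = 5.8e-07). This was the only one of the 9 named probe sets to pass that test which also passed it with siRNA as a random block (adjusted p = 0.00016) and without each replicate number in turn. A weaker CDC25C probe set rose by 1.43, and the third, whose control median was 12.4, gave 1.35 (adjusted p = 0.07).

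The mitotic cyclins went the other way from CDC25C. CCNB1, the main cyclin partner of CDK1, ranged from 3383 to 4323 (median 4030) with control siRNA and from 2423 to 3254 (median 2821) with NFYB siRNA, and fell by 0.46 (SE 0.07, adjusted p = 9.1e-05). CCNB2, a second B-type cyclin, ranged from 2595 to 3183 (median 2949) and from 1925 to 2398 (median 2144), and fell by 0.44 (SE 0.07, adjusted p = 6.9e-05). In neither gene did the groups overlap. CCNB2 was also lower at 0 h, by 0.31 (adjusted p = 0.0061), whereas CCNB1 differed there by −0.09 (adjusted p = 0.62). Of 11 measured genes for mitotic cyclins, CDK1 and CDC25 phosphatases, these were the 3 that passed (1 higher, 2 lower). CDK1 gave −0.11 (adjusted p = 0.71) and CCNA2 −0.24 (adjusted p = 0.53).

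Among 37 genes of spindle, kinetochore and cytokinesis, 7 were higher and 2 lower, with a median change of 0.09. PLK1, a kinase of mitotic entry and exit, ranged from 336 to 446 (median 387) and from 558 to 730 (median 578) and rose by 0.63 (adjusted p = 1.4e-06). CENPM, a centromere protein, rose from a median of 1293 to 1972, by 0.63 (adjusted p = 1.4e-05), and NCAPD2, a condensin subunit, from 780 to 1158, by 0.57 (adjusted p = 0.00017). NEK2, a centrosome kinase, fell from a median of 1064 to 691, by 0.52 (adjusted p = 2e-04). In these genes the groups of 6 did not overlap, and each call held with siRNA as a random block. So did 4 of the 7 increases and 1 of the 2 decreases of the list.

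ER chaperones and disulfide isomerases were lower as far as they passed the test: 7 of 29 fell and none rose, and 26 of the 29 estimates were below 0, with a median of −0.15. PDIA4, a disulfide isomerase, ranged from 755 to 848 (median 826) with control siRNA and from 461 to 582 (median 487) with NFYB siRNA, and fell by 0.70 (SE 0.08, adjusted p = 3.8e-07). SEL1L, which passes misfolded proteins out of the ER, ranged from 1039 to 1267 (median 1131) and from 548 to 902 (median 729), and fell by 0.71 (SE 0.09, adjusted p = 1.9e-06). CNPY3, a chaperone of Toll-like receptors, fell from a median of 487 to 325, by 0.51 (adjusted p = 0.00082). The groups were apart in all of these. HSPA5, the main ER chaperone, fell from a median of 6943 to 5535, by 0.29 (adjusted p = 0.029), with overlapping groups and a blocked adjusted p of 0.14. The transcription factor XBP1 fell by 0.42 (adjusted p = 0.029, blocked adjusted p = 0.15). With siRNA as a random block 3 of the 7 decreases held. The list was not particular to 8 h, since 9 of its genes were lower at 0 h, where 2.37% of all genes were lower and 1.96% higher (1.77% and 1.81% at 4 h), and PDIA4 had fallen there by 0.73.

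Other steps of secretion held calls too. Of 27 genes of ER-to-Golgi transport 4 were lower and none higher, with a median of −0.10, and 2 of the 4 decreases held with siRNA as a random block. COPG1, a COPI coat subunit, fell from a median of 348 to 242, by 0.62 (adjusted p = 0.00044), and TMED10, a cargo receptor, from 3748 to 2840, by 0.44 (adjusted p = 0.01). Of 20 genes of the translocon and signal peptide processing only SRP14 passed (0.23, adjusted p = 0.028, blocked adjusted p = 0.16). Of 25 N-glycosylation genes 3 were higher and 2 lower, and no call of this list held with siRNA as a random block.

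Genes of lipid synthesis were lower as far as they passed. Of 19 genes for fatty acids and phospholipids 6 fell and none rose (median −0.18, with 17 estimates below 0). FADS2, the delta-6 desaturase, ranged from 800 to 1611 (median 1092) and from 382 to 771 (median 521) and fell by 1.08 (SE 0.24, adjusted p = 0.0047). Its groups did not overlap, and the difference was −1.73 before OHT. LPIN1, a phosphatidate phosphatase, fell from a median of 823 to 608, by 0.53 (adjusted p = 0.0069), the Dharmacon siRNA lying 0.56 below the Ambion siRNA. ACSL4, a fatty acyl-CoA synthetase, gave −0.92 (adjusted p = 0.0055, blocked adjusted p = 0.073) and ELOVL6, an elongase, −0.53 (adjusted p = 0.01, blocked adjusted p = 0.1). Of 21 sterol genes 3 were lower and none higher, with a median of 0.02. HMGCS1, which makes HMG-CoA for the mevalonate pathway, ranged from 1212 to 2169 (median 1651) and from 626 to 1244 (median 902), and fell by 0.87 (adjusted p = 0.0031). Its groups overlapped, and it differed by 0.70 between the NFYB siRNAs. With siRNA as a random block 2 of the 6 and 1 of the 3 decreases held.

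Histone genes, which NF-Y is known to regulate, were lower in 3 of 14 (H1-2, H2BC5 and H4C8, by 0.44, 0.49 and 0.44) and higher in none, but none of these calls held with siRNA as a random block (blocked adjusted p = 0.066, 0.073 and 0.19). At 0 h 4 of the 14 had been lower and none higher, with a median of −0.35 there and −0.04 at 8 h. Signals of these short, similar genes are uncertain, since probe sets can take up RNA of several histone genes.

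Genes of the respiratory chain were higher as far as they passed. In complex I, which oxidises NADH, 11 of 27 rose and none fell (median 0.25). NDUFC1 ranged from 2047 to 2747 (median 2280) with control siRNA and from 3053 to 3694 (median 3431) with NFYB siRNA, and rose by 0.56 (SE 0.07, adjusted p = 1.9e-06). NDUFB3, another accessory subunit, rose from a median of 1266 to 1705, by 0.44 (adjusted p = 5.2e-05). In complexes II to V 11 of 38 rose and none fell (median 0.22). UQCR10 of complex III rose from a median of 4024 to 5270, by 0.44, and ATP5MC1, which encodes subunit c of the ATP synthase rotor, from 1252 to 1962, by 0.67 (adjusted p = 0.0013), the groups being apart in each. At 0 h 3 genes of each of these lists had been higher. With siRNA as a random block 4 of the 11 and 6 of the 11 increases held, beside 111 of the 324 over all genes called higher. NDUFA2 rose by 1.07 on a probe set with a control median of 42.6, but by 0.18 (adjusted p = 0.34) on its brightest probe set, so its probe sets disagree.

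In the mitochondrial ribosome 8 of 46 genes rose and none fell, and 40 of 46 estimates were above 0 (median 0.18). Of the 8 increases 4 held with siRNA as a random block. MRPL18, a protein of the large subunit, ranged from 836 to 1371 (median 1111) and from 1863 to 2096 (median 2046), and rose by 0.90 (SE 0.12, adjusted p = 3.6e-06) with no overlap. MRPL35 rose from a median of 787 to 1140, by 0.50 (adjusted p = 8.3e-06). In control siRNA cells both had fallen between 0 and 8 h, by 1.49 and 0.88. Of 22 mitochondrial import genes 2 rose, TIMM17B and TIMM10 (blocked adjusted p = 0.11 for TIMM10), and 1, the receptor TOMM70, was lower by 0.45 (adjusted p = 0.028, blocked adjusted p = 0.081).

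The same direction was seen in other large complexes. Of 34 spliceosome genes 9 rose and none fell, among them SNRPG, an Sm protein, from a median of 8442 to 10763 (0.31, adjusted p = 2e-04) and LSM3 from 2145 to 2903 (0.44, adjusted p = 0.0017). Of 29 proteasome genes 7 rose and none fell. PSMB2, a core subunit, ranged from 3618 to 4256 (median 3844) and from 4567 to 6119 (median 5546) and rose by 0.47 (adjusted p = 1.1e-05), with PSMA2 up by 0.34 and PSMA5 by 0.52. Of 23 RNA polymerase subunits 4 rose, led by POLR3K of polymerase III (0.71, adjusted p = 9.2e-07). In the cytosolic ribosome 2 of 35 genes passed, upward, although all 35 estimates were above 0 (median 0.17). The counts differed between the siRNAs: 0 ribosome genes passed with the Ambion NFYB siRNA only and 26, upward, with the Dharmacon NFYB siRNA only. In the proteasome 4 and 18 genes rose and 0 and 2 fell. Over all probe sets the Dharmacon siRNA also gave more calls, 1599 higher against 819 with the Ambion siRNA only. Whether the lists differed beyond this general excess was not tested. With siRNA as a random block 2, 4, 2 and 0 of the increases in the pooled arms held in the 4 lists.

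Of 45 DNA replication genes 10 rose and none fell (median 0.12), and 8 had been higher at 0 h. GMNN, the inhibitor of origin licensing, ranged from 2660 to 3548 (median 3078) and from 4176 to 5480 (median 4663), and rose by 0.61 (SE 0.09, adjusted p = 3.3e-05). RPA2, of the single-strand binding protein, rose from a median of 605 to 775, by 0.40 (adjusted p = 5.2e-05), MCM3, of the helicase, from 1267 to 1578, by 0.34 (adjusted p = 0.00032), and GINS2, which joins that helicase, from 2831 to 4202, by 0.47 (adjusted p = 0.00041). The groups did not overlap in these 4 genes. Of 32 DNA repair genes 6 rose and 1 fell. ERCC1, of nucleotide excision repair, rose from a median of 949 to 1295, by 0.48 (adjusted p = 0.00047). FANCG, of the Fanconi anemia core complex, gave −0.37 (adjusted p = 0.013, blocked adjusted p = 0.17). With siRNA as a random block 5 of the 10 and 2 of the 6 increases held.

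The median genomic length was 16 kb for genes called higher, 39.1 kb for genes called lower and 28.9 kb for all genes tested. These are lengths on the genome, not of transcripts. The sets differed in signal too: the median over genes of the signal averaged over all arrays was 1182.8, 646.5 and 190.5. The lengths stand beside the ACTB ratio given above, which was higher with NFYB siRNA. The part of length, signal or ratio in the direction of the lists was not tested.

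Genes of apoptosis were mixed. Of 23 proapoptotic genes 3 rose and 1 fell. SIVA1, a death-domain protein and an E2F1 target, ranged from 1381 to 1651 (median 1539) and from 2109 to 2490 (median 2255), and rose by 0.56 (SE 0.08, adjusted p = 6.9e-06) with no overlap. All 3 of its probe sets passed, 1 of them with a blocked adjusted p of 0.22, and it was up by 0.40 before OHT. CYCS, cytochrome c, rose from a median of 5103 to 7686, by 0.55 (adjusted p = 0.0013), and BID gave 0.30 (adjusted p = 0.034, blocked adjusted p = 0.13). TNFRSF10B, the TRAIL receptor DR5, ranged from 570 to 767 (median 593) and from 349 to 498 (median 420) and fell by 0.55 (adjusted p = 2e-04). Of 23 anti-apoptotic genes 3 rose and 1 fell, and the increases of BNIP3 and PEA15 held with siRNA as a random block while that of DAD1 did not (blocked adjusted p = 0.1). BNIP3 rose from a median of 256 to 413, by 0.63 (adjusted p = 0.00052). It stands in this list by the choice made here, though it is also known to promote cell death and mitophagy. MALT1, a paracaspase that signals to NF-kB, fell from a median of 427 to 302, by 0.42 (adjusted p = 0.012), but its groups overlapped, its blocked adjusted p was 0.084 and 1 of its 3 probe sets did not pass. API5, an apoptosis inhibitor, gave estimates between −0.48 and −0.34 on 4 probe sets, of which 1 passed (adjusted p = 0.044, blocked adjusted p = 0.22).

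Of the study's other named genes, SFRP1, a secreted inhibitor of Wnt signalling, ranged from 1151 to 1655 (median 1432) with control siRNA and from 468 to 636 (median 614) with NFYB siRNA. It fell by 1.25 (SE 0.11, adjusted p = 5.5e-10) with no overlap, and all 3 of its probe sets passed. PRKCZ, an atypical protein kinase C, ranged from 654 to 987 (median 943) and from 500 to 645 (median 611), and fell by 0.58 (SE 0.11, adjusted p = 0.00063) with no overlap. Before OHT the difference was −1.57 for SFRP1 and −1.42 for PRKCZ, and it departed from that at 8 h for PRKCZ (adjusted p = 0.0098) but not detectably for this SFRP1 probe set (adjusted p = 0.71). The probe set that names FOLH1 alone was dim, with a control median of 12.2, and gave −0.41 (adjusted p = 0.76). Probe sets that name both FOLH1 and its near copy FOLH1B were assigned to neither gene. They include those on which the study lists FOLH1, so the study's FOLH1 result is not addressed here.

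The extracellular matrix fell in 5 and rose in 1 of 30 genes of fibrillar collagen and its processing (median −0.19). At 0 h 7 of them had been lower and none higher (median −0.17), beside 2.37% of all genes lower. The decreases at 8 h, in HAPLN1, COL3A1, SERPINH1, LOX and COL5A2, held with siRNA as a random block. The increase, in COL4A2, did not. HAPLN1, which links hyaluronan to proteoglycans, ranged from 610 to 1247 (median 1016) and from 366 to 544 (median 424), and fell by 1.18 (SE 0.16, adjusted p = 3.8e-06). COL3A1, a fibrillar collagen, fell from a median of 262 to 122, by 1.14 (adjusted p = 0.0026). SERPINH1, the collagen chaperone, fell from 1299 to 701, by 0.80 (adjusted p = 0.00013), and LOX, which cross-links collagen, from 601 to 415, by 0.57 (adjusted p = 8.2e-05). The groups were apart in all 4, and COL3A1 and SERPINH1 differed by 0.96 and 0.47 between the NFYB siRNAs. Among matrix proteases, MMP3, stromelysin, ranged from 507 to 904 (median 676) and from 1448 to 1814 (median 1537), an increase of 1.24 (SE 0.19, adjusted p = 6.6e-05). MMP1, interstitial collagenase, had signals of 7.27 to 36.3 and 56.7 to 116, with no overlap (adjusted p = 0.00017). No fold is given for MMP1, since its control signals were too dim to be told from background. At 0 h the difference for MMP3 was 1.17. PLAT, a plasminogen activator, fell by 0.47 (adjusted p = 0.0033) and TIMP3, an inhibitor of these proteases, gave −0.58 (adjusted p = 0.02, blocked adjusted p = 0.11).

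Signalling lists held few calls. Of 22 BMP and TGF-beta targets 2 rose and 1 fell. ID2, an inhibitor of helix-loop-helix factors, ranged from 479 to 652 (median 511) and from 674 to 966 (median 863) and rose by 0.66 (adjusted p = 3e-04), and SMAD7, a feedback inhibitor of the pathway, rose from a median of 500 to 737, by 0.57 (adjusted p = 0.0044). BMP7, the ligand, gave −0.52 (adjusted p = 0.0078, blocked adjusted p = 0.089). Of 23 Wnt genes SFRP1 and the receptor FZD1 were lower, FZD1 by 0.27 (blocked adjusted p = 0.18). Of 18 p53 targets 2 fell, TNFRSF10B and ZMAT3. Of 31 interferon and antigen presentation genes 4 fell and 1 rose. Of these, the decreases of BTN3A2 and IFI6 held with siRNA as a random block, and those of BTN3A3 and HLA-F and the increase of ISG20 did not (blocked adjusted p = 0.14, 0.15 and 0.069). BTN3A2, a butyrophilin seen by gamma-delta T cells, ranged from 58.0 to 101 (median 87.2) and from 23.1 to 40.1 (median 25.7), and fell by 1.54 (SE 0.17, adjusted p = 6.6e-08). Its near copy BTN3A3 was dim, with a control median of 13.3, so the part of each in these signals is uncertain.

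Several remaining lists held 1 or 2 calls. MTHFD2, a mitochondrial folate enzyme, was the only call among 24 amino acid response genes and fell from a median of 7301 to 5323, by 0.49 (adjusted p = 0.00041) with no overlap. CDHR1, a photoreceptor cadherin, was the only call among 14 cadherins and fell from 148 to 61.7, by 1.31 (adjusted p = 1.6e-07). DNAJB1 and STIP1 rose among 21 heat shock genes (blocked adjusted p = 0.071 and 0.11). SLC30A5 among 17 metallothionein and zinc transport genes, SPRY2 among 28 immediate-early genes and GNPTAB among 33 lysosome genes were lower, with blocked adjusted p = 0.17, 0.16 and 0.23.

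Among the brighter 60% of probe sets with no overlap between the arms, the greatest increase was that of NUDT2, which cleaves diadenosine tetraphosphate. It ranged from 167 to 361 (median 299.7) with control siRNA and from 843 to 1396 (median 1007) with NFYB siRNA, an increase of 2.0 (SE 0.17, adjusted p = 2.8e-10) with no overlap. TGM2, the cross-linking tissue transglutaminase, ranged from 507 to 605 (median 548) and from 867 to 1597 (median 1233) and rose by 1.11 (adjusted p = 0.00032), the Dharmacon siRNA lying 0.79 above the Ambion siRNA. RITA1, which exports the Notch effector RBPJ from the nucleus, rose from a median of 72.6 to 136, by 1.20 (adjusted p = 0.00061). PGAP2, of GPI anchor maturation, rose from 299 to 549, by 0.92 (adjusted p = 1.7e-05). ADISSP, a secreted adipokine, rose by 1.01 on a probe set whose pairings ranged from 0.24 to 1.79, and the pseudogene GUSBP14 by 0.87 on a probe set that can bind its copies.

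By the same rule the greatest decrease after NFYB was that of ADI1, an enzyme of methionine salvage. It ranged from 738 to 875 (median 795) and from 184 to 359 (median 265), and fell by 1.62 (SE 0.13, adjusted p = 2.4e-11), the difference before OHT being −1.5. LRRC17, a secreted leucine-rich repeat protein, ranged from 74.1 to 187 (median 115) and from 33.2 to 46.2 (median 37.8), and fell by 1.58 (SE 0.26, adjusted p = 0.00012). GLCE, an epimerase of heparan sulfate, fell from a median of 179 to 65.2, by 1.20 (adjusted p = 0.0019), and LPL, lipoprotein lipase, from 244 to 110, by 1.18 (adjusted p = 0.00079), though by 0.63 on its brightest probe set. TUBB2B, a beta tubulin, fell from 1229 to 496, by 1.16 (adjusted p = 0.00055), with pairings from −1.87 to −0.44 on a probe set that its close copies may share. TMEM230 was lower by 1.11 (adjusted p = 0.025), a call that was lost with siRNA as a random block (blocked adjusted p = 0.15). In these genes too the arms did not overlap, as the rule by which they were chosen required.

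**Figure D2:**
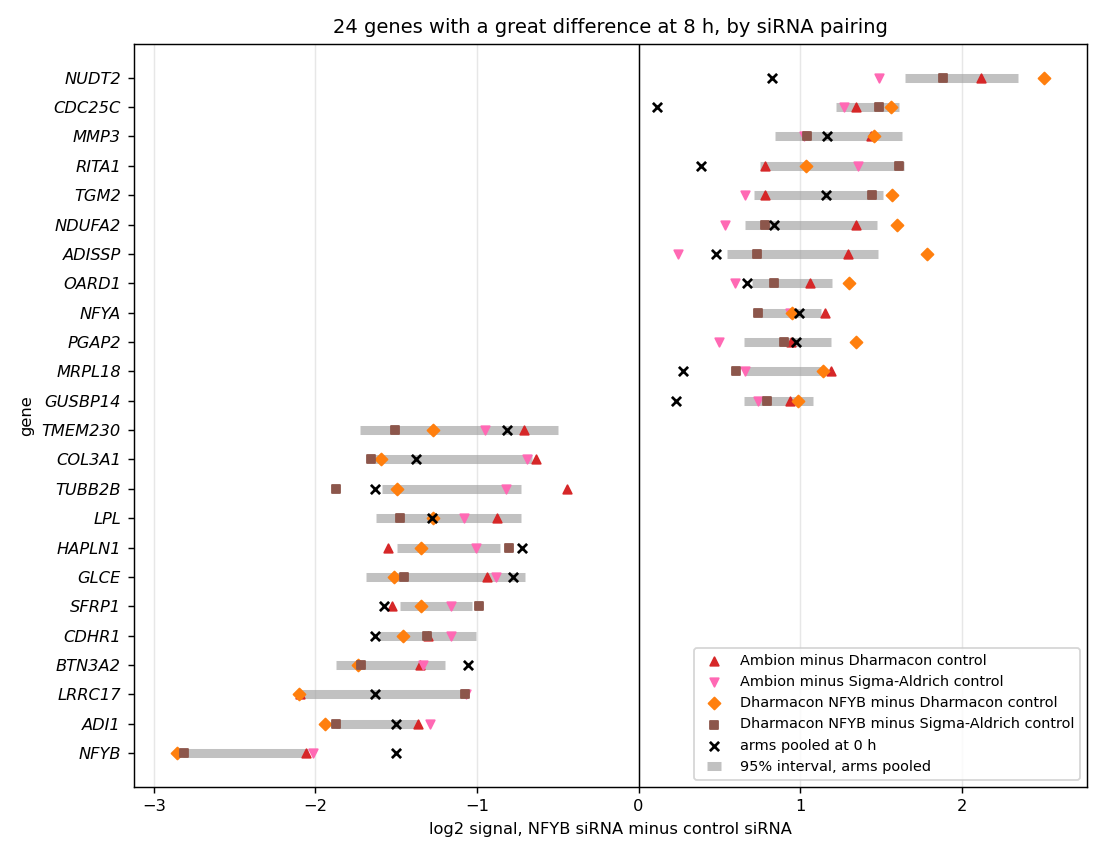
Log2 difference between NFYB and control siRNA for 24 genes: grey bars give the 95% interval of the pooled arms at 8 h, coloured symbols the 4 pairings of 1 NFYB siRNA with 1 control siRNA at 8 h, and crosses the pooled difference at 0 h. All 4 pairings lie on the same side of 0 for every gene, as the choice of genes required, and the cross of CDC25C lies at 0.12, far from its value of 1.42 at 8 h.

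Most differences at 8 h were not shown to depend on the hours of OHT. The knockdown difference at 8 h departed from that at 0 h, in a test of that departure, for 45 probe sets (0.203%) and 35 genes (0.293%), and leaving out any replicate number reduced the 45 to between 3 and 8. With siRNA as a random block, set separately at each time, 3 remained. A block shared by a siRNA across the times was not fitted. Besides CDC25C, 7 genes named here passed. NUDT2 had a gap of 0.82 at 0 h and 2.0 at 8 h (adjusted p of the departure = 0.022), its control median going from 397 to 299.7 and its NFYB siRNA median from 747 to 1007. GMNN went from 2500 to 3078 and from 2451 to 4663 (0.022), and POLR3K from 916 to 902 and from 951 to 1361 (0.011). ID2 had medians of 530 and 481 at 0 h, 848 and 1040 at 4 h and 511 and 863 at 8 h (0.014). SMAD7 had 402 and 301, then 1517 and 1487, then 500 and 737 (0.022). In both genes the medians peaked at 4 h, and the NFYB siRNA median was below that of control siRNA at 0 h and above it at 8 h. PRKCZ rose in both arms, from 372 to 943 and from 134 to 611, while its gap shrank on the log2 scale but not in signal (0.0098). The same held for SFRP1 on its probe set 202036_s_at, which went from 183 to 325 and from 57.6 to 176 (0.041). None of these 7 passed with siRNA as a random block, and only SMAD7, without replicate 1, passed in any of the fits with a replicate left out.

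**Figure D3:**
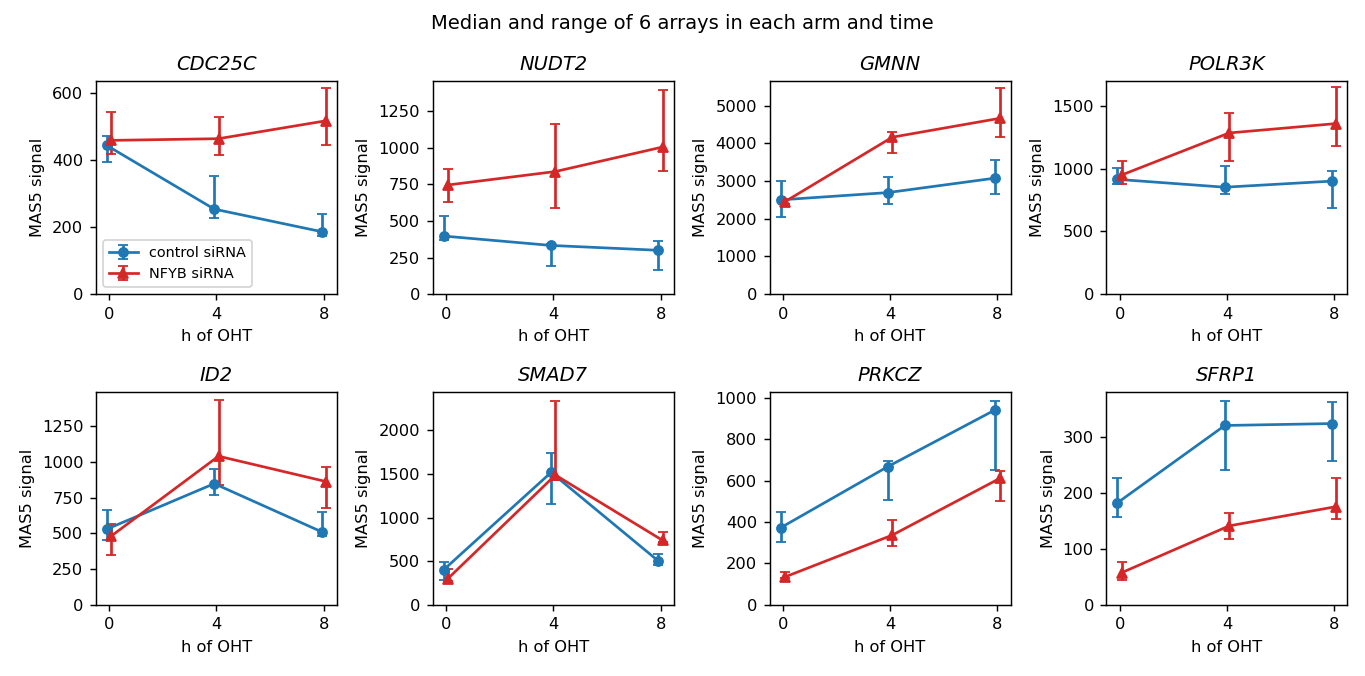
Median and range of the MAS5 signal of 6 arrays in each arm at 0, 4 and 8 h of OHT for the 8 genes whose knockdown difference at 8 h departed from that at 0 h (linear axes from 0). CDC25C falls from 442.5 to 186 with control siRNA and ends at 516 with NFYB siRNA, whereas PRKCZ and SFRP1 rise in both arms.

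Finally, promoters were searched for CCAAT on both strands, from 250 bases before to 50 after the start, for the 9562 of 11963 genes with an entry. A CCAAT box was present in 37.3% of these and in 42.6% of 277 genes called higher (Wilson 95% interval 36.9% to 48.5%, which holds the share of all genes). It was present in 45.9% of 255 genes called lower (39.9% to 52.0%, which does not hold it). The intervals treat genes as independent, and the differences between these shares were not tested. Before the start alone the shares were 35.6%, 40.8% and 43.5%. The lists differed more than the calls: 23 of 27 promoters of ER chaperones (85.2%) and 12 of 14 of histones (85.7%) held a box, against 4 of 26 of complex I (15.4%) and 10 of 40 of the mitochondrial ribosome (25%). Shares varied within each direction. Among lists whose calls were all upward they ran from 15.4% (complex I) to 55.0% (DNA replication). Between these lay RNA polymerase (18.8%), the spliceosome (31.0%), complexes II to V (36.7%) and the proteasome (50%). Among lists whose calls were all downward they ran from 30.0% (immediate-early genes) to 85.7% (histones). Between these lay fatty acid and phospholipid synthesis (37.5%), amino acid response (65.0%) and sterol genes (73.7%). At the ends of this range the immediate-early list held 1 call and the histones 3, none of which held with siRNA as a random block. Spindle genes, whose calls were mostly upward, had 75.9%. A relation of the share to the direction of a list was not tested. The ER stress element was found in 12 genes tested, 7 of them among the ER chaperones, and 2 of the 12 were called, HSPA5 and XBP1, both lower, neither call holding with siRNA as a random block. Of all 27305 promoters in the reference, 35.7% held CCAAT and 0.0806% the ER stress element. A match to these letters does not show that NF-Y was bound.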

How the data were processed

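RNA of 36 cultures was hybridised to Affymetrix expression arrays. The deposited values are intensity values on a linear scale, which the authors made with the MAS5 algorithm in Affymetrix Expression Console. The mean after trimming 2% at each end was 500.0 on every array. Of 22277 probe sets 62 controls were left out. Of the 22215 tested, 19064 name 1 gene, 1043 several and 2108 none, and symbols were updated through Entrez numbers to RefSeq. The model, in limma (version 3.58.1, run under R 4.3.3), took log2 signals of all 36 arrays in 6 groups by arm and time, with eBayes and a trend on mean signal, and p-values were adjusted over all probe sets by the Benjamini-Hochberg method. Every adjusted p in the text is from limma. A gene is represented by its brightest probe set. The number of arrays limits the precision. Data were simulated with the spread of these arrays, each array drawn independently. On them the fit called 29 of 100 probe sets changed by 0.5 on the log2 scale and 63 of 100 changed by 1, with 6 false calls. The simulation held no effect shared by the arrays of a siRNA, whereas the correlation within a block was 0.252 in the data. It therefore does not give the number of false calls to be expected here.

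The text names the genes that the study names for this experiment, the 12 greatest increases and 12 greatest decreases among called probe sets in the upper 60% by signal with the same sign in all 4 siRNA pairings and no overlap between the arms, and up to 4 called members of each gene list with the smallest adjusted p. Other members are named only beside counts. The comparison, the lists and this rule were chosen with earlier results of these data known. Alternatives were an offset of 16, quantile normalization, other filters and groupings, each siRNA alone, blocks, the unequal-variance test of the study's methods and leaving out arrays. Promoters are those of RefSeq (GRCh38.p14), matched by gene. Tables and plots were made with Python 3.11.15, pandas 2.3.3 and matplotlib 3.10.9.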

Additional observations from a re-analysis of the deposited data

Results flagged for a closer look

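Of 284 groups of 6 arrays, for the named probe sets in each arm at 8 h, 12 held an array at 1 end that lay far from the other 5, with a gap beyond Dixon's critical value. Chance flags about 1 in 20 groups. Among control siRNA arrays, Dharmacon replicate 3 was low for NFYA (376.7 on 204108_at), for NFYB (439.9 on 218128_at and 703.4 on 218129_s_at) and for PRKCZ (653.9), and Dharmacon replicate 2 was low for NFYA on 215720_s_at (30.5). Sigma-Aldrich replicate 1 was low for RITA1 (23.7) and high for TNFRSF10B (767.2), replicate 2 was low for BTN3A3 (1.8) and replicate 3 was low for NCAPD2 (594.1). Among NFYB siRNA arrays, Ambion replicate 1 was high for IFI6 (327.9) and PDIA4 (581.9), and Dharmacon replicate 3 was low for MRPL18 (1863.0).

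For 9 named probe sets the knockdown difference at 8 h departed from that at 0 h by limma's adjusted p. On the log2 scale the departure, difference at 8 h minus difference at 0 h, was 1.3 for CDC25C on 205167_s_at and 1.32 on 217010_s_at, 1.18 for NUDT2, 0.66 for POLR3K, 0.63 for GMNN, 0.84 for ID2 and 0.88 for SMAD7. It was 0.84 for PRKCZ and 0.82 for SFRP1 on 202036_s_at, which were both lower with NFYB siRNA at either time.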

How the results depend on the processing

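The counts of probe sets called at 8 h (485 higher, 547 lower) moved by more than 1.5 times under several settings. They were 1356 and 1597 with siRNA by time as 12 groups, 157 and 144 with siRNA as a random block, 819 and 825 with the Ambion NFYB siRNA only, 1599 and 1952 with the Dharmacon NFYB siRNA only, 1559 and 1500 with the Dharmacon control siRNA only, and 1153 and 1478 with the Sigma-Aldrich control siRNA only. The methods' t-test gave 225 and 230 on linear and 218 and 249 on log2 signal after Benjamini-Hochberg adjustment. Leaving out all arrays of a replicate number gave 85 to 199 higher and 78 to 193 lower (130 and 150 without number 1, 85 and 78 without 2, 199 and 193 without 3). With single arrays left out too, the counts ranged from 85 to 524 higher and from 78 to 587 lower, the highest without Ambion NFYB replicate 2. Of single arrays, leaving out Dharmacon control replicate 1 gave 323 higher and Dharmacon control replicate 2 gave 355 lower. Settings with fewer arrays have less power, and beyond that the cause was not tested. Same-numbered arrays did not deviate together (18 correlations from −0.107 to 0.0976), so the numbers do not pair them, and the replicate block gave 466 and 512. NFYB was called in every setting. Of 131 named probe sets called, none reversed. Besides the brightest NFYB probe set, 39 kept their call in every setting and 41 lost it with siRNA as a random block. Further alternatives were chosen after seeing the data: without replicate 1, 2 and 3 the 45 departures of 8 h from 0 h became 8, 4 and 3, and the 1938 differences between the NFYB siRNAs became 1780, 502 and 719. With the study's thresholds the CCAAT shares were 49.2% of genes called higher and 55.8% of genes called lower.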
